A study of Saccharomyces cerevisiae with 9 samples.

Results

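The transcript levels of the acid-tolerant parental strain Sun224T-K were compared with those of the thermotolerant parental strain Sun049T-Z while both fermented xylose under heat and acid co-stress. The comparison used the 6 arrays that carry these labels, 3 per strain, of the 9 arrays of the series, and covered every gene on the array by its systematic name. Both strains are industrial diploids (MATalpha/a) that carry a plasmid with a clonNAT resistance cassette and the xylose pathway, in which XYL1 and XYL2 come from Scheffersomyces stipitis and XKS1 from Saccharomyces cerevisiae. Sun049T-Z is heterozygous at HO for a zeocin resistance gene (Sh Ble) between loxP sites and is labelled as the control genotype. Sun224T-K is heterozygous at HO for KanMX between loxP sites and is labelled as deleted for PHO13. A single preculture text covers all arrays, with clonNAT (50 µg/mL), zeocin (200 µg/mL) and G418 (300 µg/mL) for 24 h at 30°C, followed by 48 h of aerobic growth on rich medium with clonNAT. RNA was taken 3 h after 50 g wet cells/L had been placed in medium with xylose (50 g/L), acetic acid (20 mM) and formic acid (15 mM) at 38°C. Each strain is a single strain and the backgrounds differ, so the effects of background, marker and PHO13 label cannot be told apart. The methods state triplicate arrays without saying that they came from separate fermentations, so p-values measure only the spread between these arrays, which may be technical.

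In S. cerevisiae, heat unfolds proteins and activates Hsf1, which induces chaperones of the Hsp70, Hsp90 and small heat shock families, whereas Msn2 and Msn4 induce trehalose, glycogen and general stress genes. Undissociated acetic and formic acid enter the cell and release protons in the cytosol, which are pumped out by the plasma membrane ATPase Pma1, and the weak-acid response runs through Haa1 and War1 together with changes of the cell wall and membrane. Xylose taken up by hexose transporters reaches glycolysis through the non-oxidative pentose phosphate pathway. Industrial strains also differ from each other and from the reference strain in gene content, above all near chromosome ends.

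Values are given as log2 levels, that is, the background-subtracted intensity relative to the 75th percentile of its array, averaged over up to 7 spots of a probe. The 6256 probes stood for 6256 systematic names, and 5930 were tested, namely those seen well above background on every array of either strain. The 75th percentile lay at an intensity of 1045 to 4749, and the share of spots well above background was 90.2% to 96.5%. Sun049T-Z replicate 1, the only one of these 6 arrays on slide 1, was the lowest in both. Repeated spots had a median SD of 0.323 on it against 0.051 to 0.064 on the other arrays. Slides 2 and 3, each scanned separately, held both strains. The root-mean-square difference of 2 arrays was 0.239 to 0.494 within Sun049T-Z, 0.219 to 0.467 within Sun224T-K and 0.979 to 1.172 between the strains. The number of arrays limits the precision, since an exact permutation test of 3 against 3 cannot go below a p of 0.1.

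PHO13 (YDL236W, chromosome IV), the phosphatase labelled as deleted, went against its label. Its log2 level was -3.71, -3.72 and -3.87 on the arrays labelled Sun049T-Z and -1.73, -1.17 and -1.69 on those labelled Sun224T-K, where it was 4.72-fold higher (adjusted p = 0.00011). The groups did not overlap. The strain list of the study names no PHO13 deletion for either strain, so the label itself is in doubt, and an exchange of the arrays between strains was not tested. Strain names given with array values are therefore those of the labels, and every direction below would turn if they were exchanged. HO, the endonuclease gene that both strains carry in disrupted form, was well above background on 1 of 3 arrays of each strain and was not tested. XKS1, the xylulokinase gene of the plasmid and of the genome, was at 2.61, 2.70 and 2.71 in Sun049T-Z and at 2.62, 2.76 and 2.58 in Sun224T-K. These overlapped, with a difference of -0.02 ± 0.10 (log2, SE). ACT1, the actin gene often used as a reference, was at 2.96, 2.73 and 2.90 against 3.18, 3.10 and 3.31, a difference of 0.33 that does not reach 2-fold. Of 18 genes that mark haploid a, alpha or mating-competent cells, 13 were well above background on all arrays of each strain, mostly at low signal, and MF(ALPHA)2, an alpha-factor gene, was on none. Their summed signal was 0.701 to 0.865 (log2 level) in Sun049T-Z and 0.292 to 0.423 in Sun224T-K. STE18, a G protein subunit gene of the mating pathway, was at -1.18, -0.72 and -0.99 against -3.71, -5.02 and -4.33 (10.5-fold lower), and without it the summed signal was 0.222 to 0.28 in Sun049T-Z and 0.255 to 0.339 in Sun224T-K. STE18 lay in a run of 3 neighbouring tested genes on chromosome X, with TMH11 and YJR087W, that were all lower in Sun224T-K. Of the 14 markers tested, 1 was higher and 2 lower, beside 9.39% higher and 10.2% lower among all genes tested.

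A gene counted as higher or lower when it differed by 2-fold or more with an adjusted p below 0.05 over all genes tested. An adjusted p below 0.05 at any fold was reached by 3323 genes (56%). In Sun224T-K, 557 genes were higher (9.39% of the genes tested) and 606 were lower (10.2%), together 19.6%. At 4-fold or more, 133 genes were higher and 133 lower (2.24% each). The strains did not overlap for 66.5% of all genes tested and for 1156 of the 1163 called genes. Within slide 2 and within slide 3, all 1163 called genes kept their direction, and 431 of the higher and 480 of the lower genes differed by at least 2-fold in both. These slides hold the same arrays that made the calls, except Sun049T-Z replicate 1, so the kept direction is not a separate check. The median difference of all genes was 0.01 (log2), with quartiles of -0.481 and 0.503. When arrays were scaled to ACT1 instead, this median moved to -0.323, and 331 genes were called higher and 1054 lower, so that 23.9% rather than 47.9% of the calls were higher. Changes in the text are relative to the 75th percentile, and counts with ACT1 scaling stand beside those of a list where they differ by over 1.5 times. An array cannot tell apart transcript abundance, gene copy number and how well a strain's sequence matches the probe, and genes with near-identical relatives may share signal.

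**Figure D1:**
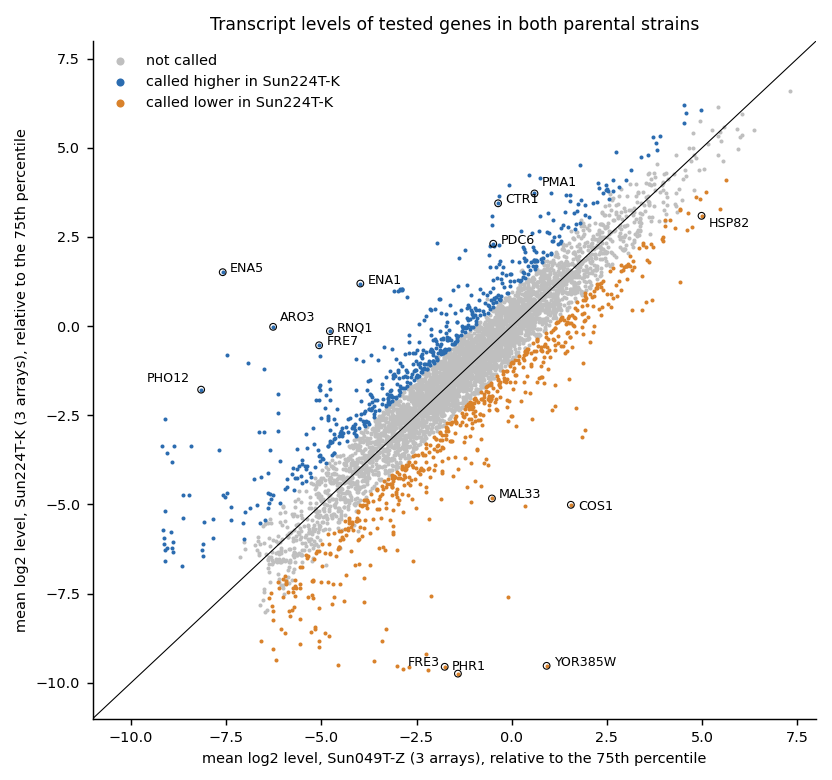
Each point is 1 tested gene at its mean log2 level in Sun049T-Z (horizontal axis) and Sun224T-K (vertical axis), 3 arrays each, relative to the 75th percentile of the array. The line marks equal levels, and the 557 genes called higher (blue) and 606 called lower (orange) in Sun224T-K lie on both sides of it, with ENA5, ARO3 and YOR385W among the points farthest from it.

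**Figure D2:**
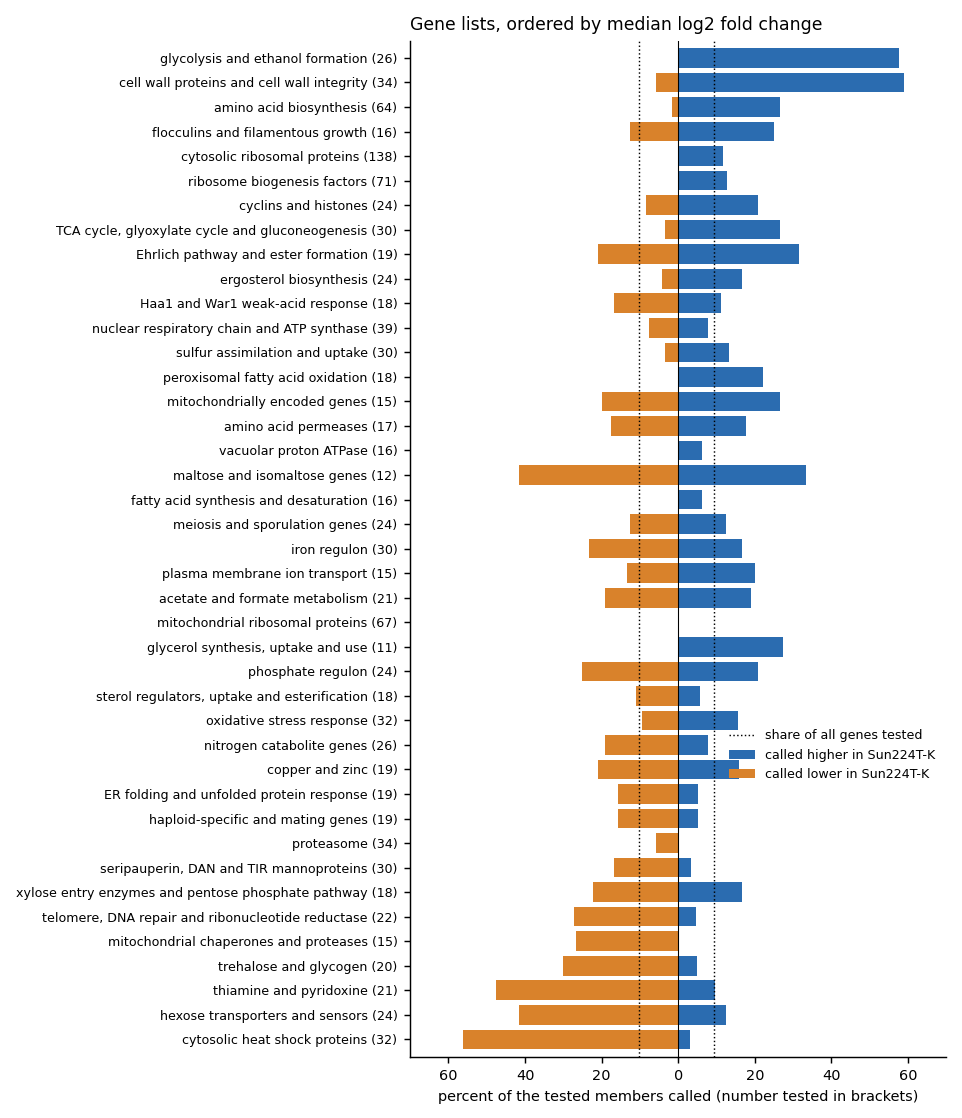
Bars give, for each list with at least 10 tested genes, the percent of tested members called higher (right, blue) or lower (left, orange) in Sun224T-K, and dotted lines give the shares of all genes tested, 9.39% and 10.2%. Lists are ordered by median log2 fold change, from glycolysis and ethanol formation (1.127) at the top to cytosolic heat shock proteins (-1.162) at the bottom, relative to the 75th percentile.

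Cytosolic heat shock genes were the list with the lowest median among those with at least 10 tested genes. Of 32 tested members, 18 were lower in Sun224T-K and 1 was higher, which makes 59.4% called against 19.6% of all genes. Leaving out Sun049T-Z replicate 3 or Sun224T-K replicate 1 made 2 higher. Their median difference was -1.162 over the list, -1.265 within slide 2 and -1.141 within slide 3. HSP82 (YPL240C, chromosome XVI), the stress-inducible Hsp90, was at 5.04, 4.93 and 4.98 in Sun049T-Z and at 3.11, 3.04 and 3.13 in Sun224T-K, 3.71-fold lower (adjusted p = 2.9e-05). Its cochaperone genes AHA1 and HCH1, which stimulate the Hsp90 ATPase, were 2.95-fold and 3.04-fold lower, STI1, which links Hsp70 to Hsp90, was 2.25-fold lower, and the Hsp90-binding cyclophilin gene CPR6 was 2.22-fold lower. SSA3 (YBL075C, chromosome II), a stress-inducible cytosolic Hsp70, was at 5.85, 5.25 and 5.28 against 3.55, 2.64 and 3.69, which is 4.50-fold lower (adjusted p = 0.0014). In each of these genes the 3 arrays of Sun049T-Z lay above all those of Sun224T-K. Its relatives SSA4 and SSA1 were 2.89-fold and 2.81-fold lower, and the nucleotide exchange factor genes SSE1 and FES1 were 2.48-fold and 2.32-fold lower. APJ1, a J-domain protein, was 3.54-fold lower, and the sequestrase genes HSP42 and BTN2, whose products gather misfolded proteins, were 2.56-fold and 2.76-fold lower.

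Not every gene of the heat shock list followed. HSP30 (YCR021C, chromosome III), a plasma membrane protein that dampens Pma1, was at 2.28, 2.97 and 2.92 in Sun049T-Z and at 5.26, 4.45 and 4.94 in Sun224T-K, 4.46-fold higher (adjusted p = 0.00076). SSB1 and SSB2, the ribosome-associated Hsp70 pair, had log2 differences of 0.83 and 0.74 and were not called. HSP104, the disaggregase gene, was at 2.88, 4.61 and 4.62 in Sun049T-Z against 2.93, 2.87 and 3.08, and replicate 1 of Sun049T-Z alone lay among the arrays of Sun224T-K. It was not called (log2 difference -1.08), but without Sun049T-Z replicate 1 its difference was -1.652 (adjusted p = 0.000192), and HSC82, the constitutive Hsp90, and SIS1, a J-domain protein, also passed (-1.668 and -1.338). Without that array 21 members were lower. HSP26 and HSP12, small heat shock genes of the general stress response, had differences of -0.67 and -0.92 and were not called, although HSP12 passed without Sun224T-K replicate 1 or replicate 3 (-1.025 and -1.061).

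Among other protein quality genes, 4 of 15 mitochondrial chaperone and protease genes were lower and none was higher (26.7% called), with HSP78, the mitochondrial disaggregase, at 4.15, 4.14 and 4.20 against 2.96, 2.92 and 3.05. With the slide as a fixed block this count was 2, and with ACT1 scaling it was 7. In the endoplasmic reticulum list, 3 of 19 were lower and 1 was higher (21.1% called), namely the oxidoreductase genes ERO1 (2.96-fold lower) and MPD1 (3.18-fold lower) and the degradation gene DER1, against the unfolded protein sensor gene IRE1 (2.77-fold higher). With ACT1 scaling 6 of that list were lower. Of 34 proteasome genes 2 were lower (5.88% called), RPT6 and RPN4, the transcription factor of proteasome genes, at 3.05, 3.08 and 3.22 against 1.74, 1.67 and 1.67. The proteasome share of 5.88% called was below the 19.6% of all genes, and with ACT1 scaling 5 were lower.

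Trehalose and glycogen genes gave 6 lower and 1 higher of 20 tested (35% called), with a median of -0.568 (with ACT1 scaling, 10 lower and 0 higher). GSY1 (YFR015C, chromosome VI), a glycogen synthase, showed the widest gap of the list, at 3.31, 3.10 and 3.03 in Sun049T-Z and 0.42, 0.34 and 0.57 in Sun224T-K, 6.53-fold lower (adjusted p = 2.3e-05). PGM2, the main phosphoglucomutase, was 3.36-fold lower, the trehalase gene NTH2 was 3.57-fold lower, and TPS1, the trehalose-6-phosphate synthase, was 2.50-fold lower, at 2.00, 2.30 and 2.18 against 1.05, 0.52 and 0.96. The list's higher member was GAC1, a regulatory subunit that directs the phosphatase Glc7 to glycogen synthase, at 2.48-fold. TPS2 and TSL1, further subunits of the same complex, had differences of -0.82 and -0.92 and were not called.

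**Figure D3:**
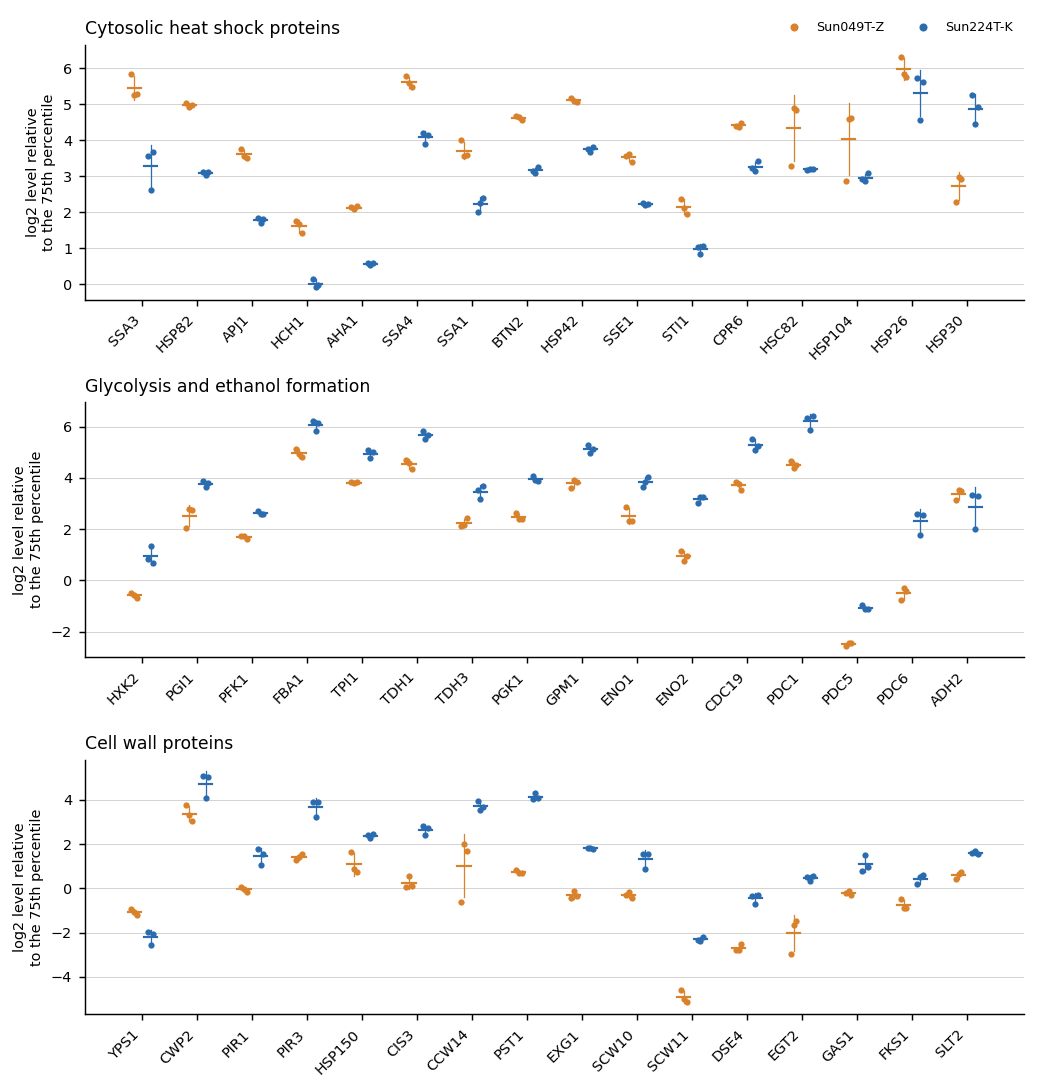
Points give the log2 level of 16 genes of each of 3 lists on every array, relative to the 75th percentile, with Sun049T-Z in orange and Sun224T-K in blue, a short line for the mean and a bar for the SD of 3 arrays. HSP82 falls from about 5 to 3.1 without overlap, PDC6 and PST1 lie higher on all Sun224T-K arrays, and HSC82, HSP104 and CCW14 show Sun049T-Z replicate 1 apart from the other 2 arrays of its strain.

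Glycolysis and ethanol formation was the opposite case. Of 26 tested genes, 15 were higher in Sun224T-K and none was lower (57.7% called, with 1 lower when Sun049T-Z replicate 3 was left out), with a median of 1.127 over all arrays, 1.111 within slide 2 and 1.266 within slide 3. With ACT1 scaling 8 were higher and 3 lower, and the median stayed above 0 at 0.794. PDC6 (YGR087C, chromosome VII), a minor pyruvate decarboxylase, was at -0.78, -0.28 and -0.40 in Sun049T-Z and at 2.61, 1.77 and 2.55 in Sun224T-K, 6.94-fold higher (adjusted p = 0.00023). PDC1 (YLR044C, chromosome XII), the major pyruvate decarboxylase, was at 4.65, 4.39 and 4.51 against 6.33, 5.87 and 6.41, 3.21-fold higher, and PDC5 was 2.65-fold higher. The enolase gene ENO2 was 4.65-fold and ENO1 2.53-fold higher, the pyruvate kinase gene CDC19 3.01-fold, the phosphoglycerate kinase gene PGK1 2.82-fold and the hexokinase gene HXK2 2.91-fold. TDH1, TDH2 and TDH3, closely related genes of glyceraldehyde-3-phosphate dehydrogenase, were 2.21-fold, 2.18-fold and 2.35-fold higher, and TDH2 lost its call without Sun049T-Z replicate 2 (log2 difference 0.941). Phosphofructokinase genes PFK1 and PFK2 had log2 differences of 0.93 and 0.91 without overlap and did not reach 2-fold. ADH1, the main ethanol-forming alcohol dehydrogenase, was measured on 5 arrays because all its spots on Sun224T-K replicate 3 were marked as outliers, and was at 6.13, 6.05 and 5.96 against 6.89 and 6.32 (not called). GLK1, the glucokinase gene, had a difference of -0.92 and was not called (-1.021 and called without Sun049T-Z replicate 3).

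Hexose transporter and sensor genes gave 10 lower and 3 higher of 24 tested (54.2% called), with a median of -0.728. HXT9 (YJL219W, chromosome X) was at 1.45, 1.87 and 1.73 in Sun049T-Z and at -2.02, -2.54 and -2.30 in Sun224T-K, 15.7-fold lower (adjusted p = 2.3e-05), and the closely related HXT11 and HXT12 were 3.99-fold and 4.86-fold lower. HXT13, HXT15, HXT16 and HXT17, which are near-identical to each other, were all lower, and HXT13 and HXT16 were not well above background in Sun224T-K, which gives bounds of at least 2.45-fold and at least 4.84-fold. Among the transporters best known in growing cells, HXT2, a high-affinity glucose transporter, was at 3.18, 4.45 and 4.22 against 2.60, 2.50 and 2.21, 2.86-fold lower (adjusted p = 0.0077). GAL2, the galactose permease that also carries xylose, was 2.42-fold lower, but the call was lost without Sun049T-Z replicate 2, Sun049T-Z replicate 3 or Sun224T-K replicate 2 (log2 differences of -1.079, -1.084 and -1.028). HXT7, a high-affinity transporter that carries xylose, was at 5.35, 4.62 and 4.83 against 5.90, 5.46 and 5.92 and was not called, but passed without Sun049T-Z replicate 1 (1.035). HXT6, HXT1 and HXT4 had log2 differences of 0.233, 0.363 and -0.4 and were not called. HXT8 was 10.2-fold higher, and HXT14 was well above background only in Sun224T-K, at least 2.21-fold higher, but lost its call under the other background correction, normexp (0.04 instead of 1.92). HXT3, a low-affinity glucose transporter, was 2.50-fold higher at 1.00, 2.90 and 2.48 against 3.57, 3.43 and 3.33, but without Sun049T-Z replicate 1 the log2 difference was 0.758 and the call was lost. Its adjusted p of 0.045 lay so near the threshold that leaving out any other array except Sun049T-Z replicate 2 also ended the call, at 1.255 to 1.495.

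In the list of xylose entry enzymes and the pentose phosphate pathway, 3 of 18 tested genes were higher and 4 lower (38.9% called). TKL1 (YPR074C, chromosome XVI), the main transketolase of the non-oxidative branch, was at -2.19, -2.16 and -1.99 in Sun049T-Z and at -0.15, 0.22 and -0.28 in Sun224T-K, 4.12-fold higher (adjusted p = 0.00011). GND1, the 6-phosphogluconate dehydrogenase gene of the oxidative branch, was 3.18-fold higher, and the transaldolase gene TAL1 was 2.08-fold higher, at -1.37, -0.93 and -0.94 against 0.03, -0.05 and -0.06. TAL1 lost its call without Sun049T-Z replicate 1 (0.908). Lower were GRE3 (YHR104W, chromosome VIII), the endogenous aldose reductase that makes xylitol from xylose, at 1.12, 0.97 and 1.18 against -0.50, -0.32 and -0.25 (2.72-fold), the reductase-like gene YJR096W (3.75-fold), the 6-phosphogluconolactonase gene SOL4 (4.92-fold) and SHB17, the sedoheptulose bisphosphatase gene (4.07-fold). The paralogs TKL2 and NQM1 had differences of -0.92 and -0.73 and were not called, although TKL2 passed without Sun224T-K replicate 1 or replicate 3 (-1.030 and -1.149). With ACT1 scaling 7 genes of this list were lower.

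Glycerol genes gave 3 higher of 11 tested and none lower (27.3% called), with 1 lower when Sun049T-Z replicate 3, Sun224T-K replicate 1 or Sun224T-K replicate 2 was left out and 2 lower with ACT1 scaling. GPP1 (YIL053W, chromosome IX), the glycerol-3-phosphate phosphatase, was at 1.04, 2.22 and 2.11 in Sun049T-Z and at 4.56, 4.46 and 4.54 in Sun224T-K, 6.64-fold higher (adjusted p = 0.00052). GUT2, the mitochondrial glycerol-3-phosphate dehydrogenase gene, was 2.81-fold higher, and STL1, the glycerol proton symporter gene, was 2.09-fold higher. GPD1, which makes glycerol-3-phosphate, had a difference of -0.88 and was not called, but passed without Sun224T-K replicate 1 (-1.007).

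Genes that handle acetate and formate were divided, with 4 higher and 4 lower of 21 tested (38.1% called), and 2 higher with ACT1 scaling. FDH1 (YOR388C, chromosome XV), formate dehydrogenase, which oxidises formate to carbon dioxide, was at -1.80, -1.95 and -1.89 in Sun049T-Z and at 0.78, 0.46 and 1.07 in Sun224T-K, 6.27-fold higher (adjusted p = 5.6e-05). FDH2 on chromosome XVI, whose sequence is near-identical, was 6.39-fold higher, so the 2 signals may not be separate. The folate enzyme genes MIS1 and MTD1, which handle formate units, were 2.41-fold and 2.16-fold higher, and MTD1 lost its call without Sun049T-Z replicate 1 (0.709) or without any array of Sun224T-K (1.095 to 1.131). Lower were 3 aldehyde dehydrogenase genes, ALD2 (2.50-fold), ALD3 (2.16-fold) and ALD5 (2.87-fold), and ATO3, a gene of the acetate and ammonium transporter family (2.21-fold). Without Sun049T-Z replicate 2 only 2 of the list were lower, since ALD3 (-0.965) and ATO3 (-0.977) no longer reached 2-fold, nor did ALD3 without Sun049T-Z replicate 3 (-0.938). ALD6, the main cytosolic acetaldehyde dehydrogenase, and ACS2, the acetyl-CoA synthetase of glucose-grown cells, had differences of 0.66 and 0.86 without overlap and were not called.

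The weak-acid response list of Haa1 and War1 targets gave 2 higher and 3 lower of 18 tested (27.8% called), and its median of 0.298 turned to -0.036 with ACT1 scaling, which left 1 higher. YRO2 (YBR054W, chromosome II), a Haa1 target of the plasma membrane, was at -0.50, -0.61 and -0.46 in Sun049T-Z and at 2.93, 2.60 and 2.98 in Sun224T-K, 10.3-fold higher (adjusted p = 2.1e-05). INM1, an inositol monophosphatase, was 2.40-fold higher. SPI1 (YER150W, chromosome V), a cell wall protein gene induced by weak acids, was at 4.76, 4.59 and 4.42 against 2.87, 2.61 and 2.62, 3.70-fold lower. The polyamine and acid exporter gene TPO1 and the ceramidase gene YPC1 were 2.33-fold and 2.40-fold lower. HAA1 itself differed by 0.43 and TPO3 by 0.51 (log2), and neither was called.

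Of 15 genes of plasma membrane ion transport, 3 were higher and 2 lower (33.3% called). PMA1 (YGL008C, chromosome VII), the proton pump, was at 0.74, 0.64 and 0.41 in Sun049T-Z and at 3.56, 4.04 and 3.56 in Sun224T-K, 8.70-fold higher (adjusted p = 3.8e-05). The ENA genes, a tandem family of sodium and lithium export ATPases of very similar sequence on chromosome IV, differed in opposite directions. ENA5 was well above background on no array of Sun049T-Z and on all of Sun224T-K (1.55, 1.47 and 1.52), at least 384-fold higher. That bound holds for the main background correction only, and under the other one the log2 difference of ENA5 was 6.249 instead of 9.101. ENA1 was at -2.71, -4.81 and -4.41 against 1.22, 1.14 and 1.22, 36.0-fold higher, whereas ENA2 was at 2.98, 2.79 and 2.81 against 1.57, 1.51 and 1.59, 2.47-fold lower. Without Sun049T-Z replicate 1 the log2 difference of ENA1 was 5.805 instead of 5.17. The arrays of the strains did not overlap for any of the 3 probes. HAL5, a kinase gene that supports potassium uptake, was 4.44-fold lower. Of 16 genes of the vacuolar proton ATPase, 1 was higher and none lower (6.25% called), and with ACT1 scaling none was called.

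Cell wall genes had the largest share called of the lists with at least 30 tested genes. Of 34, 20 were higher and 2 lower in Sun224T-K (64.7% called), with a median of 1.067 over all arrays, 1.036 within slide 2 and 1.244 within slide 3, and with ACT1 scaling 12 were higher. Without Sun049T-Z replicate 2 or Sun224T-K replicate 2, 1 was lower. PST1 (YDR055W, chromosome IV), a wall protein gene of the cell wall integrity pathway, was at 0.83, 0.72 and 0.70 in Sun049T-Z and at 4.04, 4.32 and 4.09 in Sun224T-K, 10.6-fold higher (adjusted p = 2e-05). The PIR proteins, which are linked to wall glucan, were all higher, with CIS3 at 5.32-fold, PIR3 at 4.80-fold, PIR1 at 2.85-fold and HSP150 at 2.44-fold. Glucan hydrolases used at cell separation were higher too, with SCW11 at 6.10-fold, EGT2 at 5.67-fold and DSE4 at 4.79-fold, as were the exoglucanase gene EXG1 (4.36-fold) and SCW10 (3.09-fold). The glucan synthase gene FKS1 and the elongase gene GAS1 were 2.29-fold and 2.48-fold higher. CCW14 was at -0.62, 1.99 and 1.69 against 3.95, 3.54 and 3.70, so that Sun049T-Z replicate 1 lay far below the rest of its strain, and its 6.53-fold difference (log2 2.71) was 1.887 on the log2 scale without that array. SLT2, the kinase of the integrity pathway, was 2.01-fold higher and lost its call without that array (0.915) or without Sun224T-K replicate 2 (0.959). YPS1, a yapsin protease gene of the same pathway, was 2.19-fold lower and lost its call without Sun224T-K replicate 2 (-0.952).

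Among flocculin and filamentous growth genes, 4 of 16 tested were higher and 2 lower (37.5% called). FLO11 (YIR019C, chromosome IX), the adhesin of filamentous growth and biofilms, was at 2.40, 2.29 and 2.19 in Sun049T-Z and at 4.05, 3.61 and 3.96 in Sun224T-K, 2.99-fold higher (adjusted p = 0.00022). FLO5, a subtelomeric flocculin of chromosome VIII, was higher by 3.65 on the log2 scale (2.972 without Sun049T-Z replicate 3), and FLO10 of chromosome XI was well above background only in Sun049T-Z, at least 15.4-fold lower in Sun224T-K. The pectinase gene PGU1 was well above background only in Sun224T-K, at least 1.69-fold higher, and lost its call under the other background correction (log2 difference 0.075 instead of 2.57). Flocculin genes share repeats, so their signals may mix.

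Ergosterol genes gave 4 higher and 1 lower of 24 tested, a share of 20.8% near the 19.6% of all genes, and their median of 0.324 turned to -0.009 with ACT1 scaling, which made 2 higher and 4 lower. ERG25, the C-4 methyl sterol oxidase gene, was 4.24-fold higher, at -0.51, -0.25 and -0.48 against 1.95, 1.11 and 1.95. ERG4, ERG3 and ERG11, late steps of the pathway, were 3.66-fold, 2.40-fold and 2.23-fold higher, and the farnesyl pyrophosphate synthase gene ERG20 was 2.57-fold lower. The call of ERG3 was lost without Sun224T-K replicate 3 (1.091).

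Of 64 amino acid biosynthesis genes, 17 were higher and 1, ARG3, was lower (28.1% called), with a median of 0.691. ARO3 (YDR035W, chromosome IV), the phenylalanine-inhibited DAHP synthase at the entry to aromatic amino acids, was at -5.50, -6.10 and -7.20 in Sun049T-Z, where it was well above background on 2 of 3 arrays, and at -0.12, 0.15 and -0.09 in Sun224T-K (75.9-fold higher, adjusted p = 6.2e-05). Its tyrosine-inhibited paralog ARO4 was 4.18-fold higher, the serine gene SER2 5.40-fold, and GCN4, the transcription factor of amino acid genes, was 2.55-fold higher at 2.61, 2.17 and 2.37 against 3.74, 3.61 and 3.86. Of 138 cytosolic ribosomal protein genes 16 were higher and none lower, a share of 11.6% beside 19.6% of all genes, with a median of 0.554. Without overlap of the strains, 98 of the 138 were higher and 11 lower, beside 34% and 32.5% of all genes tested. With ACT1 scaling 1 was called higher and 1 lower, and the median was 0.221. The 67 mitochondrial ribosomal protein genes had a median of -0.03, and none was called by limma in either direction. With ACT1 scaling, or without Sun049T-Z replicate 2 or Sun224T-K replicate 2, 1 of them was lower.

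Ribosome biogenesis genes gave 9 higher of 71 and none lower, a share of 12.7% beside 19.6% of all genes, with a median of 0.529. Their array medians, relative to each gene's mean over the 6 arrays, were -0.240, -0.171 and -0.139 in Sun049T-Z and 0.047, 0.519 and 0.096 in Sun224T-K, so Sun224T-K replicate 2 lay far above the other 2 arrays of its strain. Without that array the median was 0.314 and 6 genes were higher, and with ACT1 scaling 4 were. The nucleolar protein genes NSR1 and NOP1 were 3.85-fold and 2.85-fold higher, NSR1 at 0.30, 0.33 and 0.22 against 1.90, 2.90 and 1.89. Among cyclin and histone genes, 5 of 24 were higher and 2 lower (29.2% called, 2 and 4 with ACT1 scaling, and 1 lower without Sun049T-Z replicate 1, Sun049T-Z replicate 2 or Sun224T-K replicate 3), with the mitotic cyclin gene CLB2 at -5.67, -5.64 and -5.58 against -3.62, -3.51 and -3.23 (4.54-fold higher).

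Tricarboxylic acid cycle, glyoxylate and gluconeogenesis genes gave 8 higher and 1 lower of 30 tested (30% called), with a median of 0.362 and 5 higher with ACT1 scaling. IDH1 (YNL037C, chromosome XIV), a subunit of NAD-dependent isocitrate dehydrogenase, was at -0.42, 1.03 and 0.99 in Sun049T-Z and at 2.60, 2.65 and 2.56 in Sun224T-K, 4.19-fold higher (adjusted p = 0.004), and IDH2 was 2.12-fold higher. The fumarase gene FUM1, the succinate dehydrogenase gene SDH3, the malic enzyme gene MAE1 and PCK1, the phosphoenolpyruvate carboxykinase gene, were 2.76-fold, 2.83-fold, 3.30-fold and 2.68-fold higher. Of 39 nuclear genes of the respiratory chain and ATP synthase, 3 were higher and 3 lower (15.4% called), and 1 was higher with ACT1 scaling. Lower were COX5B (YIL111W, chromosome IX), the cytochrome oxidase subunit of low oxygen, at 1.88, 1.89 and 1.83 against -0.20, -0.38 and -0.07 (4.22-fold), the external NADH dehydrogenase gene NDE2 (4.44-fold) and CYC7, the minor cytochrome c (2.15-fold, with the call lost without Sun224T-K replicate 2 at -0.964). HAP4, the activator subunit for respiratory genes, was 2.75-fold higher.

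Thiamine and pyridoxine genes gave 10 lower and 2 higher of 21 tested (57.1% called), with a median of -0.598, -0.826 within slide 2 and -0.477 within slide 3. THI4 (YGR144W, chromosome VII), which makes the thiazole of thiamine, was at -0.84, -0.61 and -0.40 in Sun049T-Z and at -3.35, -4.65 and -3.68 in Sun224T-K, 9.69-fold lower (adjusted p = 0.00034). THI73, a putative carboxylate permease gene under thiamine control, was 10.5-fold lower and the thiamine synthesis gene THI20 2.68-fold lower. The thiamine transporter gene THI7 and the regulator THI2 were also lower. SNZ2 and SNZ3, subtelomeric vitamin B6 genes of near-identical sequence, were 5.66-fold and 4.66-fold lower. Other members were not called, among them THI5, THI6, THI11 and THI12 (log2 differences of -0.302, -0.071, -0.042 and 0.102). The higher members, of which 1 was called with ACT1 scaling, were THI21 and PHO3. THI21 lost its call without Sun049T-Z replicate 1 (0.934). PHO3, the thiamine-repressible acid phosphatase gene, was well above background only in Sun224T-K (at least 11.4-fold higher).

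Phosphate genes were mixed, with 5 higher and 6 lower of 24 tested (45.8% called), and 3 higher with ACT1 scaling. PHO84 (YML123C, chromosome XIII), the high-affinity phosphate transporter, was at 0.88, 0.42 and 0.11 against -1.97, -1.70 and -1.94, 5.05-fold lower (adjusted p = 0.0002), and the transporter PHO89, the regulator SPL2 and the acid phosphatase PHO5, all induced by low phosphate, were 2.88-fold, 2.92-fold and 2.92-fold lower. The subtelomeric acid phosphatase genes went the other way. PHO12 at the end of chromosome VIII was well above background only in Sun224T-K (at least 39.2-fold higher), and its near-identical partner PHO11 at the end of chromosome I was 2.34-fold higher. GIT1, a glycerophosphoinositol permease gene, was likewise found only in Sun224T-K, at least 5.11-fold higher. It lost its call under the other background correction (log2 difference 0.673 instead of 2.804).

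Metal genes differed in both directions within each list. Of 30 iron regulon genes 5 were higher and 7 lower (40% called, against 19.6% of all genes). The median of this list, 0.087, turned to -0.246 with ACT1 scaling. FET4, a low-affinity iron transporter, was 5.80-fold higher and the ferroxidase gene FET3 2.19-fold, whereas the siderophore transporter gene ENB1 and the vacuolar iron exporter gene FTH1 were 4.79-fold and 3.71-fold lower, and FRE3, FIT2 and FIT3 are described with their neighbours. Of 19 copper and zinc genes 3 were higher and 4 lower (36.8% called), and 1 was higher with ACT1 scaling or without Sun224T-K replicate 2. CTR1 (YPR124W, chromosome XVI), the main copper transporter, was at -0.09, -0.60 and -0.39 in Sun049T-Z and at 3.30, 3.48 and 3.55 in Sun224T-K, 13.9-fold higher (adjusted p = 2.1e-05). FRE7, a copper-regulated reductase gene, was 23.0-fold higher, at -4.69, -5.17 and -5.31 against -0.65, -0.37 and -0.59. ZRT2, the low-affinity zinc transporter, was 4.68-fold lower. Glutathione transferase genes of the oxidative stress list were higher, GTT1 at 4.44-fold and GTT2 at 5.58-fold, while that list gave 5 higher and 3 lower of 32 in all (25% called, 3 higher with ACT1 scaling or without Sun049T-Z replicate 1).

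Maltose and isomaltose genes, which lie near chromosome ends, had 4 higher and 5 lower of 12 tested (75% called). MAL32 (YBR299W) and MAL33 (YBR297W), on either side of the permease gene MAL31 (log2 difference 0.36, not called) on chromosome II, differed in opposite directions. MAL32, a maltase, was at -1.40, -1.37 and -1.39 in Sun049T-Z and at 1.75, 2.10 and 1.86 in Sun224T-K, 9.79-fold higher, and the activator MAL33 was at -0.01, -0.80 and -0.75 against -4.84, -4.95 and -4.70, 19.8-fold lower. The activator MAL13 of chromosome VII was well above background only in Sun224T-K, at least 22.3-fold higher, and the maltase MAL12 of the same arm was 3.46-fold higher. The isomaltase genes IMA2, IMA3 and IMA4 were 5.69-fold, 7.84-fold and 7.25-fold lower, and IMA5 was 3.37-fold higher.

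Probes well above background on all arrays of 1 strain and on none of the other give only bounds, which hold for the main background correction only. There were 31 such genes in Sun224T-K and 29 in Sun049T-Z. In Sun224T-K they were led by ENA5, PHO12, MAL13, the gene AIF1, whose product is related to apoptosis-inducing factor (at least 13.2-fold), YGR122C-A (at least 13.2-fold) and COS8, a member of a subtelomeric membrane protein family (at least 13.0-fold). In Sun049T-Z they were led by YOR385W, a gene without a known role (at least 356-fold), FRE3, a ferric reductase (at least 70.7-fold), PHR1, the DNA photolyase (at least 55.6-fold), REE1, linked to enolase gene control (at least 40.8-fold), AI1, an intron-encoded mitochondrial reading frame (at least 39.7-fold), and FIT2, a cell wall mannoprotein that retains siderophore iron (at least 29.0-fold).

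Several of these genes were neighbours. On the right arm of chromosome XV, FRE3, FIT2, FIT3, YOR385W and PHR1 formed a run of 5 tested genes that were all lower in Sun224T-K. YOR385W was at 0.557, 1.092 and 1.101 in Sun049T-Z and at -9.28, -9.04 and -10.25 in Sun224T-K, at which it was not well above background. FRE5 inside the run and YOR387C beyond it were well above background on 1 array of Sun049T-Z and none of Sun224T-K, and were not tested. FDH1, the next tested gene outward, was higher as given. On the right arm of chromosome IV, ARO3, EHD3, KRS1 and ENA5 were 4 neighbours that were all higher. EHD3, a mitochondrial hydrolase of valine breakdown that was well above background on 2 of 3 arrays of Sun049T-Z, was 39.9-fold (log2 5.32, and 5.946 without Sun049T-Z replicate 1) and KRS1, the lysyl-tRNA synthetase, 6.15-fold higher, and beyond ENA5 came ENA2 (lower) and ENA1 (higher).

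**Figure D4:**
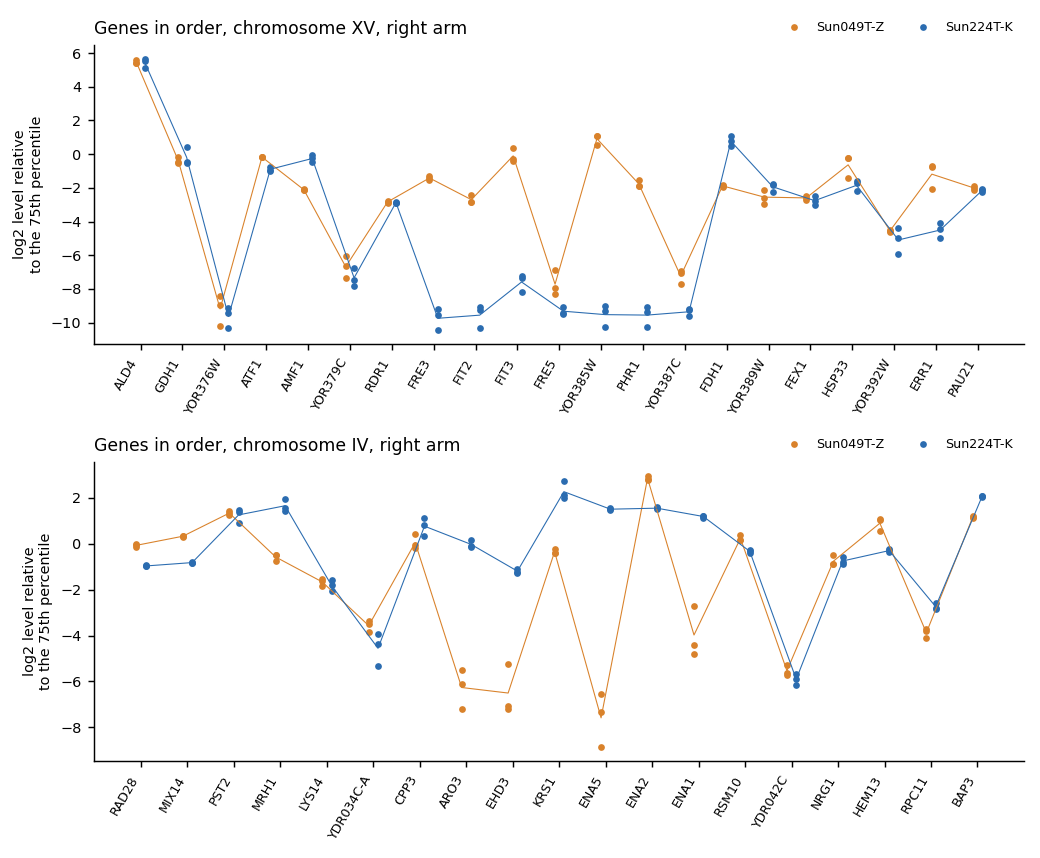
Log2 levels relative to the 75th percentile are plotted for neighbouring genes, in the order of their systematic names, on the right arms of chromosome XV (top) and chromosome IV (bottom). Points are single arrays, 3 per strain, and lines join the means. FRE3 to PHR1 lie near the background in Sun224T-K, with YOR385W at -9.28, -9.04 and -10.25, while ARO3, EHD3 and ENA5 are the low points of Sun049T-Z.

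In all, 38 runs of at least 3 neighbouring tested genes were called in the same direction, 20 higher and 18 lower, with 139 genes. The longest held 7 genes, from YAR053W to PHO11 at the right end of chromosome I, all higher. At the left end of chromosome X, IMA4, YJL220W, HXT9, YJL218W and REE1 were lower together, and at the right end of chromosome XI FLO10, YKR104W, VBA5 and GEX2 were. GEX2 lost its call without Sun049T-Z replicate 1 or 2 or Sun224T-K replicate 2 or 3 (-1.238 to -2.005), and YJL218W without Sun224T-K replicate 2 or 3 (-2.107 and -1.850). Near the right end of chromosome VIII, FLO5, YHR212C, YHR213W, YHR214W-A and PHO12 were higher together. On the left arm of chromosome XVI a run of 6 higher genes included FDH2, the S-adenosylmethionine permease gene SAM3 and SAM4, a methyltransferase gene of the same pathway. Runs were counted with the main background correction only. Under the other one YHR212C, YHR213W, YAR053W, YJL218W and SAM4 fell below 2-fold (log2 differences of 0.074, 0.56, 0.772, -0.929 and 0.31), so their runs did not stay whole.

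Chromosome ends carried more calls than the interior. Of the 320 genes that are among the 10 outermost tested genes of an arm, 109 were higher and 58 lower, 52.2% in all, against 22.8% for ranks 11 to 20, 17.6% for ranks 21 to 30 and 17.3% beyond. The outermost genes also held 34 of the genes found in 1 strain only. All 8 tested YRF1 genes, helicases of the telomeric Y-prime repeat, were higher in Sun224T-K, with a median of 2.866 and a range of 1.25 to 4.079 (log2), and 4 of them with ACT1 scaling. YRF1-8 was at -2.92, -3.40 and -2.93 in Sun049T-Z and at 1.05, 0.88 and 1.05 in Sun224T-K, 16.9-fold higher. The YRF1 genes are near-identical in sequence and share signal, so these are not 8 separate measurements.

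Chromosome IX stood apart from the other 15 nuclear chromosomes. Its 214 tested genes had a median difference of 0.56 (log2), against -0.08 to 0.197 for the others, and 157 of them were above 0. The array medians of its genes, relative to each gene's mean, were -0.268, -0.254 and -0.225 in Sun049T-Z and 0.252, 0.211 and 0.313 in Sun224T-K, without overlap, and the median difference was 0.542 within slide 2 and 0.555 within slide 3. Both arms shared it (0.567 on the left and 0.438 on the right), and it was 0.565 without the 10 outermost genes of each arm. Of the 214 genes, 50 were called higher and 15 lower (30.4% called, against 19.6% of all genes). GPP1, GUT2, FLO11 and GTT1, which were higher, and COX5B, HXT12 and IMA3, which were lower, are genes of this chromosome.

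**Figure D5:**
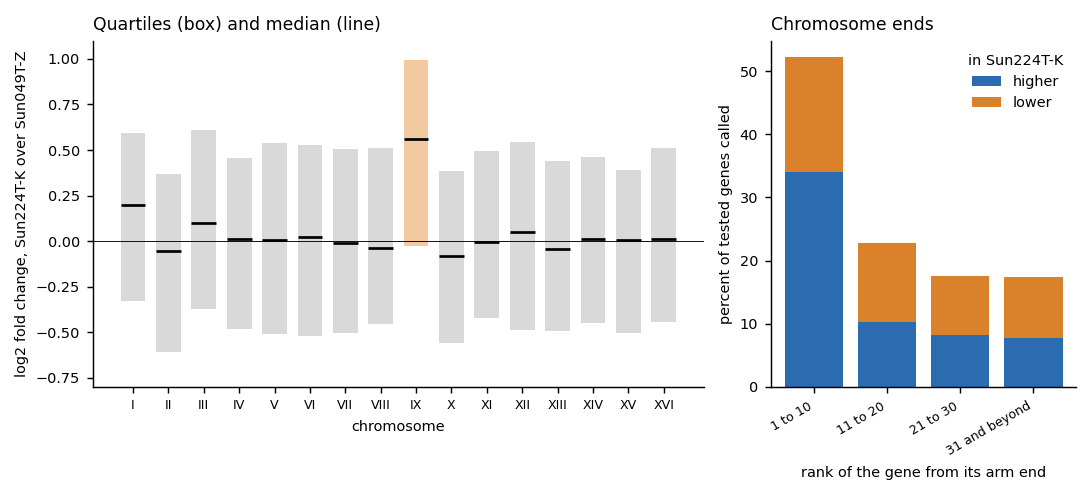
Left, boxes give the quartiles and lines the median of the log2 fold change (Sun224T-K over Sun049T-Z) of the tested genes of each chromosome, with chromosome IX (median 0.56) in colour. Right, the percent of tested genes called higher (blue) or lower (orange) in Sun224T-K is given by rank from the arm end, from 52.2% in the outermost 10 to 17.3% beyond rank 30.

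Mitochondrially encoded genes were tested for 15 of 23 probes, with 4 higher and 3 lower (46.7% called, against 19.6% of all genes). COX3, a cytochrome oxidase subunit, was at 0.02, -0.32 and 0.10 in Sun049T-Z and at 3.56, 3.95 and 4.35 in Sun224T-K, 16.2-fold higher (adjusted p = 4e-05). AI1 and BI2, reading frames inside introns of other mitochondrial genes, were found only in Sun049T-Z and only in Sun224T-K, respectively, the latter at least 5.10-fold higher. These introns are optional in S. cerevisiae strains. Under the other background correction BI2 lost its call (log2 difference 0.853 instead of 3.745).

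Of the other large differences among genes well above background on all 6 arrays, several fell outside the lists. RNQ1 (YCL028W, chromosome III), a prion protein, was at -3.91, -5.53 and -4.89 in Sun049T-Z and at -0.16, -0.18 and -0.08 in Sun224T-K, 24.9-fold higher. TFA1, a subunit of the general transcription factor TFIIE, was 18.2-fold higher, and NCA3, which acts on mitochondrial ATP synthase expression and ageing, was 15.8-fold higher. ANB1 (YJR047C, chromosome X), the low-oxygen form of translation factor eIF5A, was at -2.72, -1.66 and -1.47 against 2.33, 2.27 and 2.43, 19.6-fold higher (adjusted p = 0.00011). YHR219W, YLL066C and YML133C, helicase-like reading frames of the telomeric repeats, were 15.6-fold, 15.6-fold and 15.5-fold higher, close to YRF1-1 (15.1-fold).

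On the lower side, COS1 (YNL336W, chromosome XIV), a subtelomeric membrane protein of endosomal sorting, was at 1.54, 1.45 and 1.67 in Sun049T-Z and at -4.94, -5.28 and -4.81 in Sun224T-K, 94.5-fold lower (adjusted p = 4.5e-06). YDL218W and YLR046C, membrane protein genes of unknown role, were 41.7-fold and 31.4-fold lower. PCS60, the peroxisomal oxalyl-CoA synthetase, was at 1.99, 1.91 and 1.86 against -2.82, -3.47 and -2.48, 28.6-fold lower. GID10, a substrate receptor of the GID ubiquitin ligase, was 14.5-fold lower, YHB1, the nitric oxide dioxygenase, 10.6-fold lower, and the enolase-related subtelomeric genes ERR1 and ERR2 9.95-fold and 12.9-fold lower. STE18, the gamma subunit of the pheromone-response G protein, was at -1.18, -0.72 and -0.99 against -3.71, -5.02 and -4.33, 10.5-fold lower. The strains did not overlap in any of these genes.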

How the data were processed

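RNA of the 6 samples had been hybridised in 1 colour (Cy3) to Agilent yeast arrays. The authors deposited scanner intensity values per spot, background-subtracted by Agilent Feature Extraction 10.1.1.1, and a table of log2 values that they had processed in GeneSpring. In that table each probe was centred on its median over the 9 arrays, and its column medians were 0.082 for Sun049T-Z replicate 1 and 0 for the others, so it served only as an alternative.

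From the intensity values (43792 spots of genes, 7 per probe), control and outlier spots were left out, log2 values were shifted by the 75th percentile of each array, and spots of a probe were averaged. A probe was well above background where at least 50% of its spots were. Strains were compared with limma 3.58.1 in R 4.3.3 (lmFit and eBayes, strain as the only term) with Benjamini-Hochberg adjustment over the 5930 genes tested. For probes seen in 1 strain only, the fold is a lower bound, in which each array of the dim strain enters at the weakest signal of any probe well above background there, or at the dim probe's reading where that is brighter. On simulated data with 200 changed genes, 93.5% of changes of 2 (log2) and 87% of changes of 1.5 were recovered, none in the wrong direction. The simulated noise was independent between genes and arrays, and 3323 genes had an adjusted p below 0.05 in the real data. These rates therefore need not hold for this comparison. Gene names came from the files, and 5756 systematic names matched the R64 annotation, which gave names only. Chromosome and arm were read from the systematic name.

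Named genes were PHO13, HO, XKS1 and ACT1, the 12 largest differences each way among called genes well above background on all 6 arrays, the 6 largest bounds each way, members of 43 gene lists and members of runs of neighbours. Lists and named members were chosen with earlier results of these data known, and the lists were written from general knowledge of yeast. Alternatives were the background correction, scaling, filters, fold threshold, slide and replicate blocks, array weights, the deposited log2 table and leaving out each array. Promoter sequences and the 3 arrays of the hybrid strain were not analysed here.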

Additional observations from a re-analysis of the deposited data

How the results depend on the processing

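The 557 genes higher and 606 genes lower in Sun224T-K stayed within 1.5 times of these counts under the other background correction (374 and 530, with dim probes such as HXT14 and PGU1 at 0.04 and 0.075 on the log2 scale), quantile scaling, the other filters, array weights, the slide as a block and the deposited log2 table. Scaling to ACT1 gave 331 higher and 1054 lower, a fold threshold of 1.5 gave 1195 and 1145, and a threshold of 4 gave 133 and 133. Leaving out 1 array at a time gave 534 (without Sun049T-Z replicate 1) to 586 higher and 539 (without Sun224T-K replicate 2) to 679 lower. No gene was called in opposite directions under any of these settings. The labels do not say whether arrays with the same replicate number share a source. The deviations of same-numbered arrays correlated at 0.057, -0.181 and 0.010, and those of differently numbered arrays at -0.339 to 0.314. With 3 arrays per strain these values cannot settle whether the numbers pair the arrays. With the replicate block 558 genes were higher and 606 lower, of which 555 and 599 were also called without it. Of the 240 genes named and tested, 238 kept their direction in every setting, the exceptions being XKS1 (-0.071 to 0.017 as single arrays were left out) and ACT1 (0 when arrays were scaled to it). Of the 216 called ones, 21 lost their call under the other background correction (11 of these were not well above background on all 6 arrays), 25 with ACT1 scaling, and 172 were called in every setting at 2-fold. Bounds of probes near background are limited by the lowest signal that was well above it on each array, and the number of arrays limits all errors. The bounds hold for the main background correction only. Under the other one the fitted differences of the named probes with bounds were smaller. On the log2 scale they were 6.249 instead of 9.101 for ENA5, -6.631 instead of -10.439 for YOR385W and 1.774 instead of 5.058 for COS8.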

Other observations

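Counts for further gene groups are given beside the 19.6% called among all genes. Of 22 telomere, DNA repair and ribonucleotide reductase genes, 6 were lower in Sun224T-K and 1 was higher (31.8% called), with a median of -0.541. HUG1, an inhibitor of ribonucleotide reductase that is induced by DNA damage, was at -3.52, -2.98 and -3.47 in Sun049T-Z and at -5.92, -6.65 and -6.26 in Sun224T-K, 7.73-fold lower. The reductase subunit gene RNR4 and the single-strand binding gene RFA2 were 2.64-fold and 2.36-fold lower, and EST1, a telomerase subunit, was 2.90-fold higher. Allantoin and other nitrogen catabolite genes gave 5 lower and 2 higher of 26 (26.9% called, 8 lower and 1 higher with ACT1 scaling). DAL1 and DAL7 were 2.72-fold and 2.55-fold lower, and the GABA permease gene UGA4 was 3.17-fold lower. DAL2 in the same cluster was 2.33-fold higher and the proline permease gene PUT4 3.39-fold higher. Amino acid permease genes were divided 3 to 3 of 17 (35.3% called), with the glutamine permease gene GNP1 3.45-fold lower and the histidine permease gene HIP1 2.72-fold higher.

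In the list of the Ehrlich pathway, which degrades amino acids to fusel alcohols, and of ester formation, 6 of 19 genes were higher and 4 lower (52.6% called). SFA1, the bifunctional alcohol and formaldehyde dehydrogenase, was at 4.90, 4.62 and 4.68 against 2.89, 2.58 and 2.85, 3.89-fold lower, and ADH6, an NADPH-dependent alcohol dehydrogenase, was 4.97-fold higher. The neighbours ADH7 and AAD3 at the end of chromosome III were well above background only in Sun224T-K, at least 3.25-fold and at least 5.03-fold higher, and the fitted difference of AAD3 ran from 3.07 to 4.689 (log2) as arrays were left out. Under the other background correction both lost their calls (0.407 and 0.798). Peroxisomal fatty acid oxidation genes gave 4 higher and none lower of 18 (22.2% called), among them POX1, TES1 and FAA2 at 2.46-fold, 2.23-fold and 2.24-fold, but with ACT1 scaling none was called by limma in this list. Of 30 sulfur genes 4 were higher and 1 lower (16.7% called), and without Sun224T-K replicate 2, 8 were higher. With ACT1 scaling 3 of the sulfur genes were higher and 4 lower. Meiosis genes gave 3 higher and 3 lower of 24 (25% called), with the regulator gene NDT80 4.84-fold higher and SPS4 3.03-fold lower (5 lower with ACT1 scaling or without Sun049T-Z replicate 3).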
